A study of Mus musculus with 17 samples.

Results

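Hmga2, Lin28a, Lin28b, Igf2bp1, Igf2bp2 and Igf2bp3 were followed through the sorted cortical cells of embryonic mice. These 6 genes were chosen by name, and every probe set listed under 1 of their symbols was taken, whatever its value. Of the 6 genes, 5 carried such probe sets, 17 in all among the 34945 probe sets with 1 gene symbol: 4 for Hmga2, 4 for Igf2bp1, 6 for Igf2bp3, 2 for Lin28a and 1 for Lin28b. Igf2bp2 was not analysed here.

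The series holds 17 arrays of RNA from cortical cells of hGFAP-eGFP embryos, in which the human GFAP promoter drives eGFP and so marks cells by the activity of a glial promoter. All groups carry that transgene and none was treated. The cells were sorted by flow cytometry into 5 groups: E14 GFP-high cells that were also selected for Prominin, an apical membrane protein (n = 4), E14 GFP-low Prominin-selected cells (n = 3), E18 GFP-positive Prominin-selected cells (n = 4), and E14 GFP-high and E14 GFP-low cells whose labels name no Prominin gate, called ungated here (n = 3 each). Whether samples of a group came from separate litters is not stated, so each p-value rests on a spread between samples that may be technical. The E18 gate is written as GFP-positive and not as high or low, so it was compared with each E14 gate in turn.

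The 6 genes form a post-transcriptional circuit of early development. Lin28a and Lin28b are RNA-binding proteins that block the maturation of let-7 microRNAs. Mature let-7 lowers the messenger RNAs of Hmga2, Igf2bp1 to Igf2bp3 and the Lin28 genes themselves. Hmga2 is an architectural chromatin protein with AT-hooks that is abundant in fetal neural stem cells and is known to restrain the Cdkn2a locus there. Igf2bp1, Igf2bp2 and Igf2bp3 bind messenger RNAs in the cytoplasm and govern their stability, transport and translation. In the cortex these factors mark young progenitors, before the onset of gliogenesis.

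The let-7 family is shown because it links all members. Of the 10 mouse let-7 names with a 5′-arm mature sequence in RefSeq (GRCm38.p6), 9 shared the seed, bases 2 to 8, printed here in capitals, and 1, let-7j, differed in it. No microRNA level was used here.
mmu-let-7a-5p: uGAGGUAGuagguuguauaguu
mmu-let-7b-5p: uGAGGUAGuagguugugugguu
mmu-let-7c-5p: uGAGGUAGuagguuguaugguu
mmu-let-7d-5p: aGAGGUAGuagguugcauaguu
mmu-let-7j: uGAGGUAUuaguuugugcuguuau

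The promoters of 5 of the 6 members were in the RefSeq table, Igf2bp1 being the exception, and those of Hmga2 and Igf2bp3, the members in that table that were lower at E18 in the data below, are shown as the 250 bases before the annotated start. The Hmga2 window is chr10:120476470-120476719 (GRCm38.p6, minus strand), and its capitals mark the only GC box, GGGCGG on the opposite strand, 133 bases before the start.
Hmga2: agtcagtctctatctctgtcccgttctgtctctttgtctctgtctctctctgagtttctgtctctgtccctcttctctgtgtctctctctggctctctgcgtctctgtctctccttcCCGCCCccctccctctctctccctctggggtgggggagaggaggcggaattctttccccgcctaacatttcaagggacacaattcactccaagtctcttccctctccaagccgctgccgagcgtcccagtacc

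The Igf2bp3 window is chr6:49214955-49215204 (GRCm38.p6, minus strand), and its capitals mark a CCAAT box 118 bases and an E-box, CACGTG, 23 bases before the start.
Igf2bp3: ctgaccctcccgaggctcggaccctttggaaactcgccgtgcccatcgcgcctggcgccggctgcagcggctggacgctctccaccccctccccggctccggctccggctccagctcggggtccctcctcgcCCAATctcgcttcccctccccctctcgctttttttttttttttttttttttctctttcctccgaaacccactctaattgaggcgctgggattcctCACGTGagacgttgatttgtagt

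Both windows were rich in pyrimidines on the printed strand. Pyrimidines made up 70.8% of the Hmga2 window, at the 99.6th percentile of the 32851 promoter windows of the same length in the table, and 68.0% of the Igf2bp3 window, at the 99.3rd percentile. The Igf2bp2 window held 58.0%, the Lin28b window 44.8% and the Lin28a window 37.2%, at the 90.8th, 21.4th and 3.25th percentiles. The motifs themselves were common or were not shared: searched on both strands, GGGCGG occurred in 32.7% of all windows, CCAAT in 33.8%, CACGTG in 6.02% and TATAAA in 12.4%. Hmga2 and Igf2bp3 had none of these motifs in common, and neither window held TATAAA.

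Values are log2 of the deposited signal plus 16, quantile-normalised over the 17 arrays, and are called levels. On this scale a fold change of a dim gene is understated. A level of 5.84 was taken as the background bound, from 29 probe sets of 21 genes of other organs. Groups at or below it are described as not shown to be above background, and no fold is given against them. Of the probe sets tested, 49.9% had a mean at or below it. Single signals are given as deposited, on the linear scale, and signals are compared only within a probe set.

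At E14, Hmga2, Igf2bp1 and Igf2bp3 were all above the background bound in each of the 4 sorted groups by their brightest probe sets. At E18, Igf2bp1 and Igf2bp3 were lower but still above it, whereas Hmga2 was at 5.72 ± 0.16 (SD, n = 4), just below the bound. Lin28a and Lin28b were below the bound in all 5 groups.

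**Figure D1:**
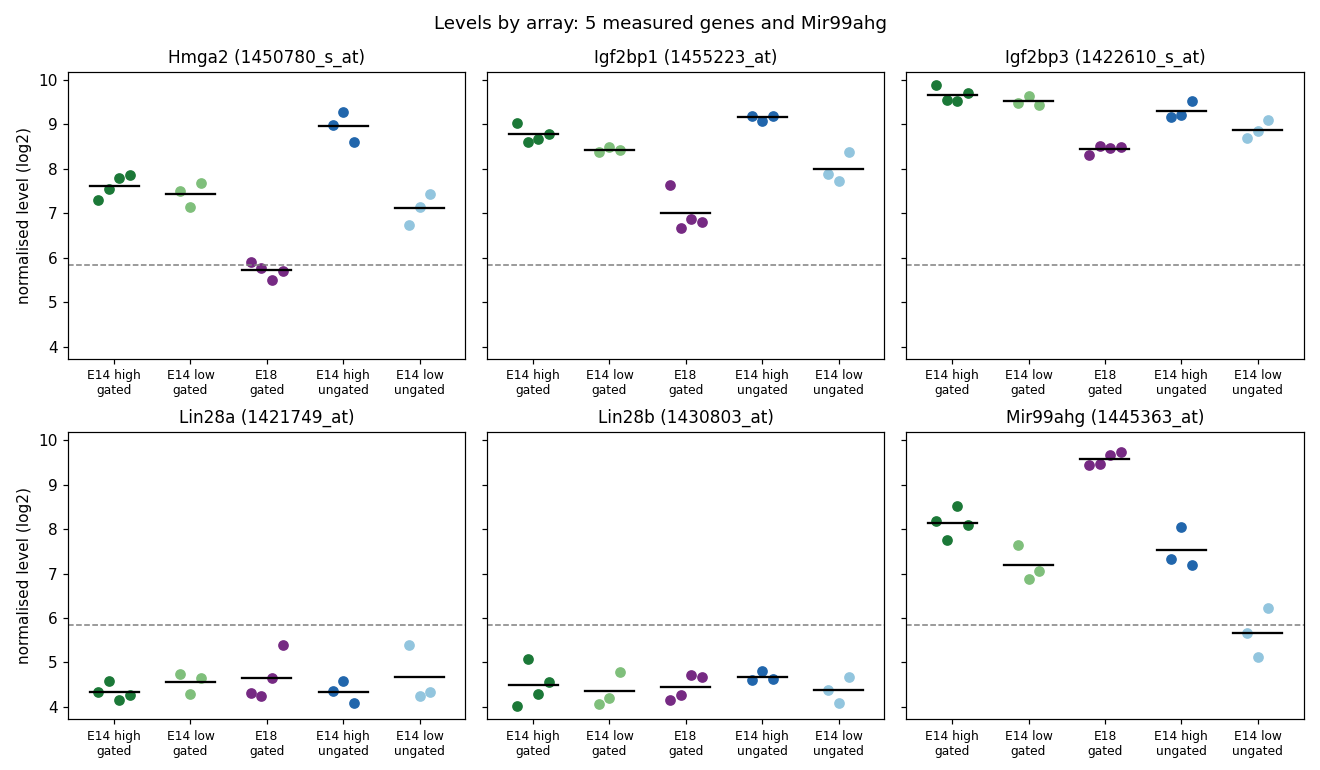
Normalised log2 level of the brightest probe set of each measured gene, and of the dimmer of 2 Mir99ahg probe sets, in the 17 arrays (points, 1 per array) of the 5 groups, with group means as black bars and the background bound of 5.84 as a dashed line. The 4 E18 arrays lie lowest for Hmga2, Igf2bp1 and Igf2bp3 and highest for Mir99ahg 1445363_at, whose brighter partner, not plotted, did not pass the test with age, while Lin28a and Lin28b stay below the bound in every group.

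For Hmga2, probe set 1450780_s_at gave deposited signals of 135, 166, 205 and 214 in E14 GFP-high Prominin-selected cells and 161, 118 and 174 in the E14 GFP-low Prominin-selected cells. The 4 E18 arrays read 48.4, 47.1, 38.6 and 47.8, and none of them came within reach of an E14 array. The ungated cells read 496, 625 and 378 for GFP-high and 84.4, 115 and 156 for GFP-low. The mean levels ran from 8.96 ± 0.34 (SD, n = 3) in ungated GFP-high cells through 7.62 ± 0.25 (n = 4) and 7.44 ± 0.27 (n = 3) in the gated GFP-high and GFP-low cells and 7.11 ± 0.35 (n = 3) in ungated GFP-low cells to the E18 value. The highest and the lowest group stood clear of their neighbours, while the 3 groups between them overlapped.

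For Igf2bp1, probe set 1455223_at read 521, 365, 395 and 433 in gated GFP-high cells at E14, 317, 349 and 309 in the gated GFP-low cells and 103, 188, 121 and 111 at E18. All E18 arrays were below all E14 arrays of either gate, with replicate 3 nearest to them. Ungated GFP-high cells read 574, 545 and 570 and ungated GFP-low cells 219, 184 and 322. The order of mean levels was 9.16 ± 0.06 (ungated GFP-high), 8.77 ± 0.20 (gated GFP-high), 8.43 ± 0.06 (gated GFP-low), 7.99 ± 0.34 (ungated GFP-low) and 7.00 ± 0.44 (E18, all errors SD). Neighbours in that order did not overlap in level, but the lowest gated and the highest ungated GFP-low array were both at 8.38, and in deposited signal these 2 groups overlapped.

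For Igf2bp3, probe set 1422610_s_at read 961, 732, 737 and 845 in gated GFP-high cells at E14, 713, 813 and 669 in gated GFP-low cells and 347, 298, 338 and 338 at E18. The E18 arrays again lay below all E14 arrays. Ungated GFP-high cells read 569, 590 and 727 and ungated GFP-low cells 403, 436 and 547. The mean levels were 9.67 ± 0.17 (gated GFP-high), 9.52 ± 0.11 (gated GFP-low), 9.31 ± 0.20 (ungated GFP-high), 8.88 ± 0.20 (ungated GFP-low) and 8.45 ± 0.09 (E18). Neighbours among the first 3 overlapped, and the last 2 groups each stood apart from the group above. Unlike Hmga2 and Igf2bp1, Igf2bp3 was thus not highest in the ungated GFP-high cells, but gated and ungated levels were not tested against each other, since the labelling kit changes with the gate.

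Lin28a and Lin28b gave deposited signals of 0.0723 to 34.9 over their 3 probe sets and 17 arrays. Their mean levels per group lay between 4.33 and 4.70, against 4 for a signal of 0 on this scale. Neither gene was shown to be above background in any group, and at this sensitivity no change in them could have been read.

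To ask how the factors differ with age among Prominin-selected cells, E18 cells were compared with each E14 Prominin-selected group. By their brightest probe sets, Hmga2 fell by 1.90 ± 0.18 (log2 difference ± SE) against GFP-high cells, Igf2bp1 fell 3.42-fold and Igf2bp3 fell 2.33-fold. The fall was seen in 11 of the 17 probe sets against E14 GFP-high cells and in 9 of 17 against E14 GFP-low cells, by limma with Benjamini-Hochberg adjustment over all probe sets. No member probe set rose. In the comparison with GFP-high cells 23.3% of all probe sets were called, 13.5% as lower and 9.84% as higher, and in that with GFP-low cells 16.2% were called, 9.47% as lower and 6.75% as higher. All E18 arrays lay below all E14 GFP-high arrays in 9 of the 17 member probe sets and in 15.3% of all probe sets, and below all E14 GFP-low arrays in 12 of 17 and in 16.3% of all. The median difference was −0.74 over the 17 member probe sets against −0.05 over all probe sets for GFP-high cells, and −0.76 against −0.07 for GFP-low cells. Both comparisons use the same 4 E18 arrays and are not independent of each other.

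Hmga2 was lower at E18 in 3 of its 4 probe sets in both comparisons. Probe set 1450780_s_at fell by 1.90 ± 0.18 against GFP-high cells (limma, adjusted p = 1.33e-05) and by 1.72 ± 0.19 against GFP-low cells (adjusted p = 1.23e-04). Probe set 1422851_at read 88.9, 122, 92.9 and 107 in E14 GFP-high cells and 24.3, 10.9, 14.7 and 21.1 at E18, a fall by 2.05 ± 0.20 (limma, adjusted p = 2.29e-05). Probe set 1450781_at read 90.7, 96.2, 110 and 125 and then 36.1, 1.43, 1.94 and 15.1, a fall by 2.34 ± 0.29 (limma, adjusted p = 9.70e-05). For all 3 the E18 mean was at or below the background bound, so these differences give no fold. Against GFP-low cells the calls of 1422851_at and 1450781_at were lost with the RNA quality covariate described further on, at differences of −1.03 (adjusted p = 0.0819) and −1.67 (adjusted p = 0.0598). The fourth, 1446196_at, was below the bound in all 5 groups and carried no information on the change. A separate probe set of the Hmga2-ps1 pseudogene was also at or below the bound throughout.

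Igf2bp1 was lower in all 4 of its probe sets against GFP-high cells and in 3 of 4 against GFP-low cells. Probe set 1455223_at, above background at both ages, was 3.42-fold lower than in GFP-high cells (log2 difference −1.77 ± 0.20, limma, adjusted p = 6.73e-05) and 2.70-fold lower than in GFP-low cells (−1.43 ± 0.22, adjusted p = 0.00108). Probe set 1449210_at fell by 1.99 ± 0.30 and 1418761_at by 1.32 ± 0.20 against GFP-high cells, to E18 levels of 5.14 and 5.69, below the bound. Probe set 1459825_x_at, whose suffix marks probes that can cross-hybridise, was 1.75-fold lower than in GFP-high cells (adjusted p = 0.0118) and had an adjusted p of 0.0513 against GFP-low cells. The call of 1418761_at against GFP-low cells was lost in 4 of 15 alternatives. Among these were the omission of E14 GFP-low replicate 2 (limma, adjusted p = 0.0573), values as deposited (adjusted p = 0.0668) and the replicate number as a block (adjusted p = 0.0907).

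Igf2bp3 was lower in 4 of its 6 probe sets against GFP-high cells and in 3 of 6 against GFP-low cells, and the size of the difference varied between them. The brightest, 1422610_s_at, was 2.33-fold lower than in GFP-high cells (−1.22 ± 0.14, limma, adjusted p = 6.62e-05) and 2.10-fold lower than in GFP-low cells (−1.07 ± 0.15, adjusted p = 6.39e-04). Probe sets 1433731_at, 1433732_x_at and 1450687_at differed by −0.68, −0.58 and −0.74 from GFP-high cells, with adjusted p of 0.0137, 0.0416 and 0.0438. The last 2 calls were not stable. That of 1450687_at was lost in 12 of 16 alternatives, among them 7 of the 8 that leave out single arrays (all but E14 GFP-high replicate 1), with adjusted p up to 0.122 in these. That of 1433732_x_at was lost in 8 of 16, among them the omission of E18 replicate 2, 3 or 4 or of E14 GFP-high replicate 3 or 4, also with adjusted p up to 0.122. Against GFP-low cells the calls of 1433731_at and 1433732_x_at were lost in 7 and 5 of 15 alternatives, in each case also without E18 replicate 2 or E14 GFP-low replicate 1 or 3, and that of 1433731_at without E18 replicate 4. Probe set 1422611_s_at differed by −0.28 ± 0.26 (adjusted p = 0.523) although it was well above background at both ages, and 1453957_a_at, near the bound in the gated cells, by −0.10. The annotation used here does not say which transcripts each probe set reads.

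**Figure D2:**
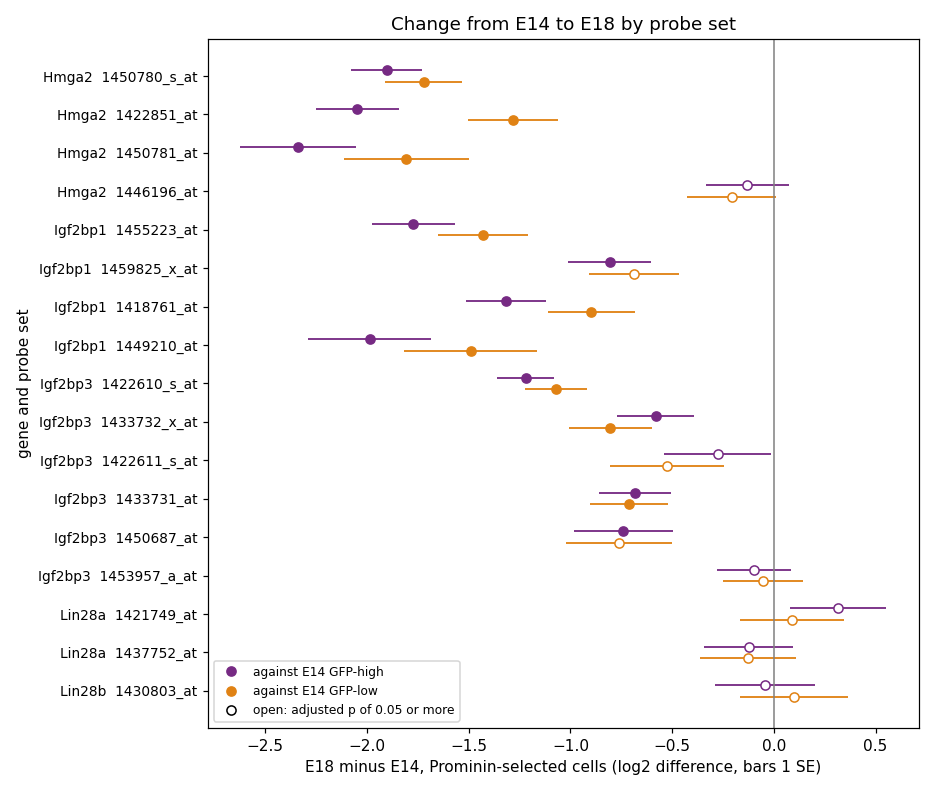
Log2 difference between E18 and E14 Prominin-selected cells for the 17 member probe sets, against E14 GFP-high cells (n = 4 and 4) and against GFP-low cells (n = 4 and 3), with bars of 1 SE. Filled points passed an adjusted p of 0.05, 11 in the first comparison and 9 in the second, and all of these lie to the left of 0.

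The E14 and E18 samples also differed in some RNA quality controls and in cell type markers. The Gapdh controls gave a 3′ minus 5′ difference that was 0.54 to 2.30 on the log2 scale in gated E14 arrays and −0.21 to 1.00 at E18, and the 18S control of the middle of the transcript read 2292 to 5192 and 302 to 583. The same difference of the Actb controls overlapped widely, at 0.89 to 1.80 in gated E14 arrays and 0.69 to 1.62 at E18. The Gapdh difference was used as a covariate, and the Actb difference and the 18S signal were not. With that covariate the brightest probe sets of Hmga2, Igf2bp1 and Igf2bp3 still fell against GFP-high cells, by 1.55, 1.68 and 1.43. Igf2bp3 1433731_at then differed by −0.34 (limma, adjusted p = 0.282) and 1433732_x_at by −0.30 (adjusted p = 0.452). Against GFP-low cells the covariate ended 5 of the 9 member calls, those of Hmga2 1422851_at and 1450781_at, Igf2bp1 1449210_at (−1.60, adjusted p = 0.0843) and Igf2bp3 1433731_at (−0.26, adjusted p = 0.564) and 1433732_x_at (−0.44, adjusted p = 0.388). Without the 5 E14 arrays above the E18 range of this measure, which leaves 1 array per E14 group, these 3 brightest probe sets fell by 1.58, 2.04 and 1.44 against GFP-high cells, Igf2bp3 1450687_at differed by −0.0050 from GFP-high cells, and Igf2bp1 1455223_at had an adjusted p of 0.0986 against GFP-low cells.

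All 6 listed interneuron markers rose at E18 in both comparisons, their summed signal being 257 to 501 in E14 GFP-high arrays, 394 to 642 in E14 GFP-low arrays and 2847 to 3237 at E18. Of 6 basal progenitor markers, 5 fell against GFP-high and 4 against GFP-low cells, with sums of 10342 to 12167 and 7436 to 7924 at E14 and 2604 to 3349 at E18. Of 9 neuronal markers, 6 rose and 1 fell against GFP-high cells (sums of 10547 to 13015 at E14 and 18963 to 22121 at E18), and 3 rose and 3 fell against GFP-low cells, whose sums were 20088 to 21338. Of 9 radial glial markers, 6 fell and 2 rose against GFP-high cells, with sums of 11587 to 15996 at E14 and 9397 to 13053 at E18. Against GFP-low cells 4 fell and 2 rose, while the E14 sum there was 8298 to 9401, below the E18 range except for a slight overlap at its lower end. Of 7 markers of Cajal-Retzius cells, the early neurons of the cortical surface, 5 fell and 0 rose against GFP-low cells (median −1.48), and 3 rose and 1 fell against GFP-high cells. Their sums were 3523 to 5036 in E14 GFP-low, 620 to 794 in E14 GFP-high and 876 to 1605 in E18 arrays. Prom1, which encodes the Prominin used for the gate, was itself 4.26-fold lower at E18 than in GFP-high cells. In bulk RNA fewer cells that express a factor and less of its RNA per cell cannot be told apart, and the part of cell composition in the falls of Hmga2, Igf2bp1 and Igf2bp3 was not tested.

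GFP-high and GFP-low cells at E14 were compared to ask whether the factors differ between cells of one age sorted by reporter level. Inside the Prominin gate no member probe set passed the test, and without the gate Hmga2 and Igf2bp1 were higher in GFP-high cells. In the gated comparison limma called 0 of 17 member probe sets, with 1 at an unadjusted p under 0.05, and 0.592% of all probe sets were called, 0.132% as higher and 0.461% as lower. The smallest p was that of Hmga2 1422851_at, which was higher by 0.77 ± 0.22 (adjusted p = 0.157). Igf2bp1 1455223_at differed by 0.34 ± 0.22 and Igf2bp3 1422610_s_at by 0.15 ± 0.15. In the same comparison 5 of 7 Cajal-Retzius markers and 3 of 9 neuronal markers were lower in GFP-high cells, and 4 of 14 genes of mitosis were higher.

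In the ungated comparison limma called 5 of 17 member probe sets as higher in GFP-high cells and 0 as lower, when 11.7% of all probe sets were called, 5.66% as higher and 6% as lower. Hmga2 1450780_s_at was 3.60-fold higher (1.85 ± 0.27, adjusted p = 0.00531) and 1422851_at was 5.31-fold higher (2.41 ± 0.59, adjusted p = 0.0390). The latter read 280, 824 and 268 in GFP-high and 31.2, 38.7 and 147 in GFP-low cells, so the groups did not overlap, but 1 array of each stood away from the others. All GFP-high arrays lay above all GFP-low arrays in 15.7% of all probe sets. Hmga2 1450781_at was higher by 1.62 ± 0.24 (adjusted p = 0.00576). Igf2bp1 1455223_at was 2.24-fold higher (1.16 ± 0.23, adjusted p = 0.0170) and 1418761_at was 2.10-fold higher (1.07 ± 0.23, adjusted p = 0.0235). None of the 6 Igf2bp3 probe sets passed, and 1422610_s_at differed by 0.43 ± 0.21 (adjusted p = 0.269). The calls of Hmga2 1422851_at and of both Igf2bp1 probe sets were lost on leaving out single arrays, with adjusted p up to 0.127, 0.0663 and 0.0912. Without GFP-high replicate 1, the only ungated array labelled with the kit of the gated cells, Hmga2 1450780_s_at was higher by 1.84 ± 0.33 (limma, adjusted p = 0.0258).

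In the ungated cells all 9 radial glial markers and all 14 genes of mitosis were also higher in GFP-high cells, and all 9 neuronal markers were lower, when 6.68% of all genes were called higher and 7.1% lower. The summed radial glial signal was 26946 to 36467 in ungated GFP-high and 5850 to 8158 in ungated GFP-low arrays. The summed neuronal signal was 7942 to 8444 and 34575 to 56702 in the same order, and that of mitosis 16828 to 17684 and 1714 to 3578. Their part in the differences of Hmga2 and Igf2bp1 was not tested.

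The difference between the gated and ungated GFP contrasts was tested directly over all 17 arrays. Hmga2 1450780_s_at was the only 1 of 17 member probe sets to pass (limma, −1.67 ± 0.32, adjusted p = 0.00452), when 4.87% of all probe sets were called and 2.39% as lower. Its GFP contrast was 0.18 with the gate and 1.85 without. The other Hmga2 probe sets pointed the same way, with −1.64 for 1422851_at and −1.09 for 1450781_at, at adjusted p of 0.134 and 0.184. For Igf2bp1 1455223_at it was −0.82 ± 0.32 (adjusted p = 0.188). Since 5 of the 6 ungated arrays were labelled with another kit than the gated ones, a contribution of the kit to this difference cannot be told apart from the gate. RNA quality changed with the gate too. The Gapdh 3′ minus 5′ difference was 0.54 to 2.30 in gated E14 arrays. It was −0.21 to −0.19 in ungated GFP-high arrays and −0.25 to 0.18 in ungated GFP-low arrays. A contribution of RNA quality to the interaction cannot be told apart from the gate either.

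**Figure D3:**
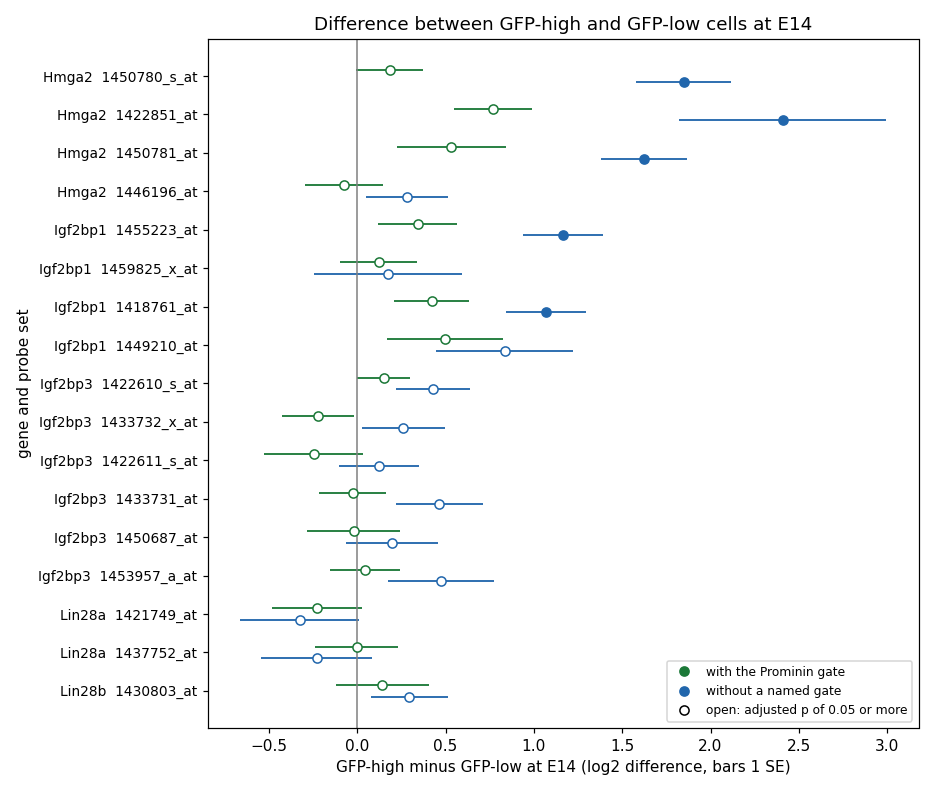
Log2 difference between GFP-high and GFP-low cells at E14 for the 17 member probe sets, with the Prominin gate (n = 4 and 3) and without a named gate (n = 3 and 3), with bars of 1 SE. No point of the gated contrast is filled, while 3 Hmga2 and 2 Igf2bp1 probe sets passed an adjusted p of 0.05 in the ungated contrast.

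The known let-7 targets outside the 6 genes moved in both directions with age, more of them down than up. Of 18 listed with a probe set, each taken by its brightest, 6 fell and 3 rose against E14 GFP-high cells and 4 fell and 2 rose against GFP-low cells. Of all genes, 15.5% were called lower and 9.59% higher in the first comparison, and 10.7% and 5.72% in the second. The list's median difference was −0.40 and −0.33, against −0.07 and −0.10 over all genes. Nr2e1, the nuclear receptor Tlx of neural stem cells, fell by 2.58 ± 0.18 against GFP-high cells (limma, adjusted p = 1.91e-06) and by 1.65 ± 0.19 against GFP-low cells, or 3.14-fold in the latter. Ccnd1, cyclin D1, was 2.33-fold and 1.88-fold lower. Igf1r, the receptor of insulin-like growth factor 1, moved the other way, 2.31-fold higher than in GFP-high and 1.87-fold higher than in GFP-low cells (adjusted p = 4.79e-05 and 0.00130). Arid3a, a transcription factor, rose by 0.69 and 0.63. Hic2, a repressor of transcription, fell by 0.53 against GFP-low cells and differed by −0.28 from GFP-high cells.

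**Figure D4:**
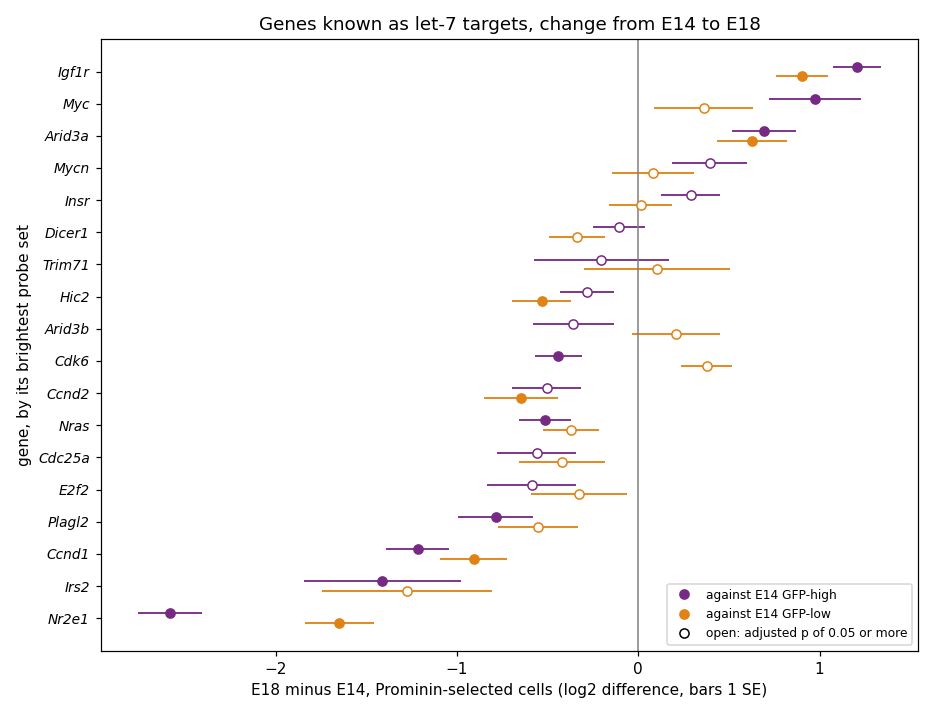
Log2 difference between E18 and E14 Prominin-selected cells for 18 genes known as let-7 targets, by the brightest probe set of each, against GFP-high and GFP-low cells, with bars of 1 SE. Nr2e1 and Ccnd1 lie left of 0 and Igf1r and Arid3a right of 0 with filled points in both comparisons.

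The genes that make, use or destroy let-7 were split. Of 18 listed, 4 rose and 4 fell against GFP-high cells (median 0.05), and 5 rose and 3 fell against GFP-low cells (median 0.06). Within the Argonaute and GW182 proteins, which carry out silencing by microRNAs, Ago4 rose 2.73-fold and 2.58-fold and Tnrc6b 3.28-fold and 3.11-fold, while Ago1 fell 2.19-fold and 1.85-fold. Hnrnpa1, which binds the let-7a precursor, was 1.99-fold higher than in GFP-high cells. Khsrp, which promotes let-7 processing, was 1.85-fold higher than in GFP-low cells.

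Among 10 partners of the Igf2bp proteins in messenger ribonucleoproteins, 1 rose and 1 fell against GFP-high cells and 2 rose and 1 fell against GFP-low cells. Elavl1 (HuR), which binds AU-rich RNA, was 3.38-fold and 2.06-fold lower (adjusted p = 3.73e-04 and 0.0241). Dhx9, an RNA helicase, was 1.82-fold and 1.96-fold higher, and Hnrnpu was 1.55-fold higher than in GFP-low cells. Of 7 known messenger RNA targets of the Igf2bp proteins with a probe set, 4 rose and 0 fell against GFP-high cells, and 2 rose and 0 fell against GFP-low cells. Mapt, which encodes tau and is also on the neuronal marker list, was 5.57-fold and 2.72-fold higher. Btrc, an F-box protein, was 1.58-fold, Gap43, a growth cone protein, 1.57-fold and Myc 1.96-fold higher than in GFP-high cells. Cd44, the other call against GFP-low cells, was below the background bound in both groups.

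Among the other HMG genes and the genes of the Cdkn2a axis that were tested, no fall passed the test. Of 8 listed members of the HMG families, 5 had a probe set of their own, and Hmga1, Hmgb1 and Hmgn2 did not. Of these 5, Hmgb3 rose 1.75-fold and 2.32-fold and 0 fell. The list of the Cdkn2a axis holds Cdkn2a, whose locus Hmga2 is known to restrain, beside other genes such as Cdkn2d, Bmi1 and Jund. Of its 7 genes, 0 passed limma's test in either comparison, with 5 and 1 at an unadjusted p under 0.05. Against GFP-high cells 3 of the 7 were at or below background in both groups. Cdkn2d and Bmi1 had the smallest p against GFP-high cells, with differences of 0.42 and 0.47 (adjusted p = 0.0505 and 0.0561). Against GFP-low cells these were Cdkn2a at −0.72 (adjusted p = 0.104), below background in both groups, and Jund at −0.38 (adjusted p = 0.230).

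Of 10 other genes known to mark progenitor age, 3 fell and 1 rose against GFP-high cells, and 1 fell and 1 rose against GFP-low cells. Dach1, a transcriptional cofactor, fell by 2.01 and 1.81, to an E18 level of 5.08. Prdm16 and Ezh2, both regulators of chromatin, were 1.65-fold and 1.45-fold lower than in GFP-high cells. Nr2f1 (COUP-TFI) was 1.75-fold and 1.93-fold higher. Of 14 genes of glial development, 5 rose and 3 fell in each comparison. Zbtb20 rose 3.81-fold and 5.17-fold, and Sparcl1 rose by 2.76 and 1.91. Sox9 and Aldoc were 2.88-fold and 2.57-fold lower than in GFP-high cells, and Nfia was 1.68-fold lower and Apoe 2.67-fold higher than in GFP-low cells. Genes of mitosis fell with the factors, 14 of 14 against GFP-high cells (median −1.42) and 9 of 14 against GFP-low cells (median −0.81). Bub1b, Ccnb2, Tpx2 and Cenpe, all needed for division, were 5.96-fold, 4.46-fold, 3.44-fold and 3.51-fold lower than in GFP-high cells.

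Over these lists 49 genes were called against GFP-high cells, of which 23 kept their call under all alternatives run, and 38 against GFP-low cells, of which 5 did: Nr2e1, Ago4, Zbtb20, Sparcl1 and Bub1b. No called list gene changed direction. Without the E14 arrays above the E18 Gapdh range 22 and 32 of these calls were lost, with the replicate block 12 and 22, and with the Gapdh covariate 14 and 24. Among the genes named, the last were Arid3a, Dhx9, Btrc, Gap43, Ezh2 and Prdm16 against GFP-high cells, and Arid3a, Ccnd1, Hic2, Ago1, Khsrp, Dhx9, Hnrnpu, Elavl1, Mapt, Cd44, Dach1 and Apoe against GFP-low cells. Leaving out single arrays ended 7 and 19 calls, among them those of Ezh2 against GFP-high cells and of Arid3a, Hic2, Khsrp, Dhx9, Hnrnpu, Elavl1 and Cd44 against GFP-low cells.

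The genes whose profiles over the 17 arrays were nearest to each factor were found by the root mean square difference of mean-centred levels among 9970 genes. For Hmga2, whose own root mean square about its mean was 1.08, they were Hey1, a Notch target gene, at 0.24, Thsd4 at 0.29 and Fzd2, a Wnt receptor, at 0.32. For Igf2bp1 (own value 0.81) they were Gpc1, a glypican, at 0.19, Suclg2, a mitochondrial enzyme, at 0.22 and Gprc5b at 0.26. For Igf2bp3 (own value 0.49) they were Brd7 at 0.14, Eif3b, a translation initiation factor, at 0.16 and Ikbkg at 0.16. The factors were not each other's nearest genes. Hmga2 and Igf2bp1 were 0.48 apart, with 44 genes nearer to Hmga2, Igf2bp1 and Igf2bp3 were 0.49 apart, with 367 genes nearer to Igf2bp1, and Hmga2 and Igf2bp3 were furthest apart of the 3 pairs, at 0.83, with 1079 genes nearer to Hmga2. All these arrays share their groups, so the likeness is a description and was not tested.

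Mir99ahg, a long noncoding transcript, was examined after its values were seen. In the RefSeq table the next genes after it on the chromosome are Mir99a, Mirlet7c-1 and Mir125b-2, of which the second encodes let-7c, printed above. The other mature sequences of this cluster, with seeds in capitals, share neither the let-7 seed nor each other's.
mmu-miR-99a-5p: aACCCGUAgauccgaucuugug
mmu-miR-125b-5p: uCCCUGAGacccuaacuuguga

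Mir99ahg probe set 1445363_at read 273, 194, 356 and 259 in gated GFP-high cells at E14, 182, 92.9 and 112 in gated GFP-low cells and 663, 675, 750 and 780 at E18. The E18 arrays stood above all E14 arrays. It was 2.72-fold higher than in GFP-high cells (1.44 ± 0.21, limma, adjusted p = 2.95e-04) and 5.23-fold higher than in GFP-low cells (2.39 ± 0.22, adjusted p = 4.01e-05). Its other probe set, 1431424_at, differed by −0.32 (adjusted p = 0.321) and 0.38 (adjusted p = 0.286), so the rise rests on 1 of 2 probe sets. The arrays do not read the mature microRNAs, and no level of let-7c follows from these values.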

How the data were processed

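Each array gives 1 intensity per probe set, as deposited by the authors, on a linear scale. The mean between the 2nd and 98th percentiles was 150.0 on every array, and the summarisation software is not given in the sources used here. Array medians were 24.2 to 45.1. No 2 arrays held the same values, and precision is limited by how many arrays each group has. Per the labels, 12 arrays (all 11 gated ones and ungated GFP-high replicate 1) were labelled with MessageAmp II and 5 with an Affymetrix kit.

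With 64 control probe sets left out, 34945 of 45037 carried 1 symbol, 932 several and 9160 none. Of these, 34741 matched the RefSeq table by Entrez identifier. Signals were taken to log2 after adding 16, quantile-normalised over 17 arrays and tested with limma 3.58.1 in R 4.3.3, called at an adjusted p under 0.05. Gated comparisons were fitted on the 11 gated arrays, the ungated one on 6 and the interaction on 17. In lists each gene stands by its probe set of highest mean, and up to 4 called genes of lowest p were named per list and comparison, or up to 2 of lowest p where none was called. The 3 nearest profiles were named for each factor with group means spanning at least 1. Listed genes with no probe set of their own were not analysed here. The members and lists were chosen with earlier results of these data known. On simulated data of 34945 probe sets, 92.4% of shifts of 2 and 50.7% of shifts of 1 were recovered in the E18 to GFP-high comparison. Shifts of 1 were recovered in 37.3% for E18 to GFP-low, 34.3% for the gated GFP comparison, 1.49% for the ungated one and 2.99% for the interaction. Of shifts of 0.5, 0 were recovered in each comparison. Only 66 or 67 probe sets per shift size differed, all brighter than the median, so the shares need not hold for these data or for members near background. The alternatives were values as deposited, pseudocounts of 1 and 64, leaving out the dimmest 40%, 1 probe set per gene, the replicate number as a block, all arrays together, the Gapdh covariate and leaving out single arrays. The Gapdh covariate was run only for the comparisons among gated arrays, not for the ungated comparison or the interaction. Leaving out E14 arrays above the E18 Gapdh range was chosen after seeing the data. Figures used Python 3.11.15 and matplotlib 3.10.9.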

Additional observations from a re-analysis of the deposited data

Results flagged for a closer look

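The GFP contrast of Hmga2 1450780_s_at differed between cells sorted with and without the Prominin gate, with an interaction of −1.67 on the log2 scale (limma over 17 arrays, adjusted p = 0.00452). It kept its call in all 19 alternatives run for it, with values from −1.84 to −1.40. The Gapdh covariate was not among them, so the interaction was not tested against this measure of RNA quality. In the groups of 4 arrays, 0 of 34 tests found a member value far from the rest of its group.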

How the results depend on the processing

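Of 85 member results, 26 were called in the main fit. Over 1280 alternative values of these 85, 1207 kept their side of the threshold, 68 lost a call, 5 gained one and 0 reversed a call. A result that was not called could change sign and still count as kept. Lin28b 1430803_at ran from −0.20 to 0.16 against E14 GFP-high cells when single arrays were left out. Against E14 GFP-high cells the 3 called probe sets of Hmga2, Igf2bp1 1455223_at and 1418761_at and Igf2bp3 1422610_s_at kept their calls throughout, and against E14 GFP-low cells Hmga2 1450780_s_at and Igf2bp3 1422610_s_at did. With values as deposited the median of all probe sets in the E18 to GFP-high comparison was 0.06 in place of −0.05, and Hmga2 1450780_s_at fell by 1.66.

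In the E18 to GFP-high comparison, 8149 probe sets and 11 members were called. With 1 probe set per gene, which tests 5 members, these were 4850 and 3, and without E14 arrays above the E18 Gapdh range 4084 and 6. In the E18 to GFP-low comparison, with 5670 and 9, they were 3166 and 3 with 1 probe set per gene, 2077 and 4 with the Gapdh covariate, and 808 and 2 without those E14 arrays, where the lone array per E14 group is assumed to vary like the others. The gated GFP comparison, with 207 and 0, called 70 probe sets with a pseudocount of 1, 557 with 64 and 442 without the dimmest 40%. The ungated one, with 4074 and 5, called 2524 and 2 members with a pseudocount of 1, 2 members with 1 probe set per gene, and 6296 probe sets with all 17 arrays fitted together.

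Leaving out single arrays gave 11 to 203 probe sets in the gated GFP comparison, the fewest without GFP-low replicate 3, 2337 to 3875 probe sets and 2 to 4 members in the ungated one, and 1 to 2 members in the interaction, the second being Hmga2 1422851_at without ungated GFP-low replicate 3. Fewer arrays were fitted in each case, and otherwise the cause of these changes was not tested.

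The replicate numbers were not taken as pairs: with group means taken out, the 27 correlations between same-numbered arrays ran from −0.17 to 0.05, and 0 of 16 arrays correlated best with their own number. With the number as a replicate block limma called 5079 and 2069 probe sets in the 2 E18 comparisons, 0 in the gated GFP comparison (3385 at an unadjusted p under 0.05), and 2461 with 2 members in the ungated one.

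Dim signals limit the reading of Lin28a and Lin28b at all ages and of Hmga2 at E18.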
